A study of Mus musculus with 4 samples.

Results

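Tissue-resident-type natural killer (NK) and group 1 innate lymphoid (ILC1) cells were taken from 4 single-cell RNA sequencing libraries of the submandibular gland, one of the large salivary glands of the mouse. They are called the members below. A cell was a member when its barcode held at least 300 detected genes and at most 10% mitochondrial UMIs (unique molecular identifiers, which count RNA molecules rather than reads) and its raw UMIs met 5 conditions. Ncr1, Klrb1c and Klre1 had to sum to at least 2 UMIs, Cd3e, Cd3d and Trac to 0, and Pecam1 and Cdh5 to at most 1. Itgae, Itga1 and Gzmc, called the residency genes here, had to sum to at least 2, and S1pr5 and Klrg1 to 0. The members were thus chosen by their measured UMIs of these 13 genes, so their levels are a description and were not tested. Of 39558 deposited barcodes, 36685 passed the cell filter, 4272 were NK-type by the NK, T cell and endothelial conditions, and 3281 were members. The members numbered 546 and 1410 in deligated replicates 1 and 2, and 642 and 683 in homeostatic replicates 1 and 2.

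All mice were female C57BL6/J. In the 2 deligated libraries, from mice of 14 weeks, a metal clip had closed the main ducts for 14 days and had then been removed for 5 days. The 2 homeostatic libraries came from mice of 12 weeks that had no surgery. All glands were dissociated with enzymes, depleted of EpCAM-positive epithelium and Ter119-positive red cells with magnetic beads, and cleared of dead cells, so the suspension was enriched for stroma. The protocols name 2 glands without giving the animals behind a library, and they name the sublingual gland beside the submandibular gland. Age, surgery and software version (Cell Ranger 6.0.1 for the deligated and 7.0.0 for the homeostatic libraries, per the file headers) differed together and cannot be told apart. The p-values below rest only on the spread between these libraries, which may be technical, and the gene tests estimate it partly over all genes together.

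NK cells and ILC1 are lymphocytes without rearranged antigen receptors that carry the activating receptor NKp46 (Ncr1) and NK1.1 (Klrb1c), kill target cells with perforin and granzymes, and secrete chemokines and interferon-gamma. Salivary glands are known to hold a resident population of such cells that carries the integrins CD49a (Itga1) and CD103 (Itgae) and depends on TGF-beta. Circulating NK cells instead carry S1pr5, a receptor used for leaving tissue, together with Klf2. The T-box factors Eomes and T-bet (Tbx21) guide both lineages, and Eomes is the one more often tied to NK cells.

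Gzmc, which the rule used, and Gzmb, which it did not, are neighbouring granzyme genes on chromosome 14, and Gzmb RNA separated the members from other NK-type cells by one of the widest margins. Their promoters are shown for that reason. Each run covers 250 bases before the start site and 30 from it, on the minus strand, 5′ to 3′, from RefSeq on GRCm38.p6, at chr14:56234628-56234907 for Gzmc and chr14:56262305-56262584 for Gzmb. Capitals mark matches on either strand to a T-box core (AGGTGT), a RUNX core (TGTGGT) or an AP-1 site (TGANTCA).

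Gzmc: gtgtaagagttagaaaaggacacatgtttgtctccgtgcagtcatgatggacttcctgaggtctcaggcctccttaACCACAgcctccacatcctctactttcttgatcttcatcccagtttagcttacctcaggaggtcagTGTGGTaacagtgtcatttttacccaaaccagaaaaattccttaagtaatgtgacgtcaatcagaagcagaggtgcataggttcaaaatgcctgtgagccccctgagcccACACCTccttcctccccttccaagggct

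Gzmb: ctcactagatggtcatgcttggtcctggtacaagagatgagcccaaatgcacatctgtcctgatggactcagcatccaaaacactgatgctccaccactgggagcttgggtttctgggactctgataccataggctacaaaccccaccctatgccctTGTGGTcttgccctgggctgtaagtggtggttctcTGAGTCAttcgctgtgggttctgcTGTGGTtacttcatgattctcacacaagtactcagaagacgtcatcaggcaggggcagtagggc

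Both promoters held 2 RUNX cores, 174 and 108 bases before the start of Gzmc and 93 and 34 bases before the start of Gzmb. Gzmc had 1 T-box core, which began 2 bases past its start, and no AP-1 match, while Gzmb had 1 AP-1 match 58 bases before its start and no T-box core. Among 32851 promoter windows of 300 bases, 16.8% held the RUNX core, 13.7% the T-box core and 7.81% the AP-1 site. A match is a description of letters in this window and names no bound factor. Granzyme genes resemble each other. Of the 31-base words in Gzmc transcripts, 2.20% also occur in Gzmb and 8.22% in Gzme, so the counting could have split reads among them.

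The members were sequenced to 3519048 and 8666914 UMIs in deligated replicates 1 and 2, and to 4862237 and 4881921 in homeostatic replicates 1 and 2. Median UMIs per member lay between 5446 and 6490.5, median genes between 1950 and 2344, and median mitochondrial shares between 2.31% and 2.79%. Only 1 barcode was shared by members of different libraries, the deligated ones. No doublet caller was run, and 424 members (17, 270, 90 and 47 in the order deligated replicates 1 and 2, homeostatic replicates 1 and 2) were doublet-like, with at least 5 UMIs of the counted other classes or over 30000 UMIs. Values per library follow that order throughout. The counted classes were macrophage, B and plasma cell, fibroblast, mural, epithelial, Schwann and endothelial. Secretory, dendritic, erythroid, T cell and other innate lymphoid markers were not counted. In the doublet-like count, Ighm, Ighd, Cdh1, Kcnj8, Mbp and Epcam, found in many members, were set aside after the data were seen. A total of 2 members held over 30000 UMIs, and 1 of homeostatic replicate 1 held 211758.

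The defining genes were present in every library, in UMIs scaled to a total of 1000000 over the members of a library (CPM). Ncr1 stood at 443, 452, 416 and 415 CPM, Klrb1c at 575, 535, 346 and 375, Itga1 at 425, 433, 398 and 429, and Itgae at 311, 380, 324 and 351. Gzmc, encoding granzyme C, a serine protease of cytotoxic granules, was at 2590, 3215, 2507 and 2506 CPM. These values follow from the rule. A UMI of Gzmc was also found in 0.56% to 10.2% of endothelial cells, highest in deligated replicate 2, and the median endothelial cell held 3727 to 5992 UMIs.

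Gene combinations differed among the members. UMIs of Itgae, Itga1 and Gzmc occurred together in 54.4%, 60.8%, 50.9% and 51.7% of members, as the plot of residency gene combinations shows. Itga1 with Gzmc made up 11.8% to 16.4%, Itga1 alone 7.59% to 14.3%, Itgae with Itga1 6.60% to 8.41%, Itgae with Gzmc 6.15% to 8.79%, Gzmc alone 4.11% to 4.83%, and Itgae alone 0.293% to 0.623%. Gzmc UMIs were spread widely: the median member held 6, 10, 6 and 6, the highest 221, 257, 377 and 197, and 19.8%, 14.5%, 21% and 23% held none. Itgae was absent from 23.5% to 33.5% of members and Itga1 from 11.3% to 13.3%. After thinning each member to 1000 UMIs, all 3 genes were seen together in 5.86%, 8.01%, 5.92% and 5.71% of members, and none in 15.3% to 22.1%, so the shares depend on depth.

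**Figure D1:**
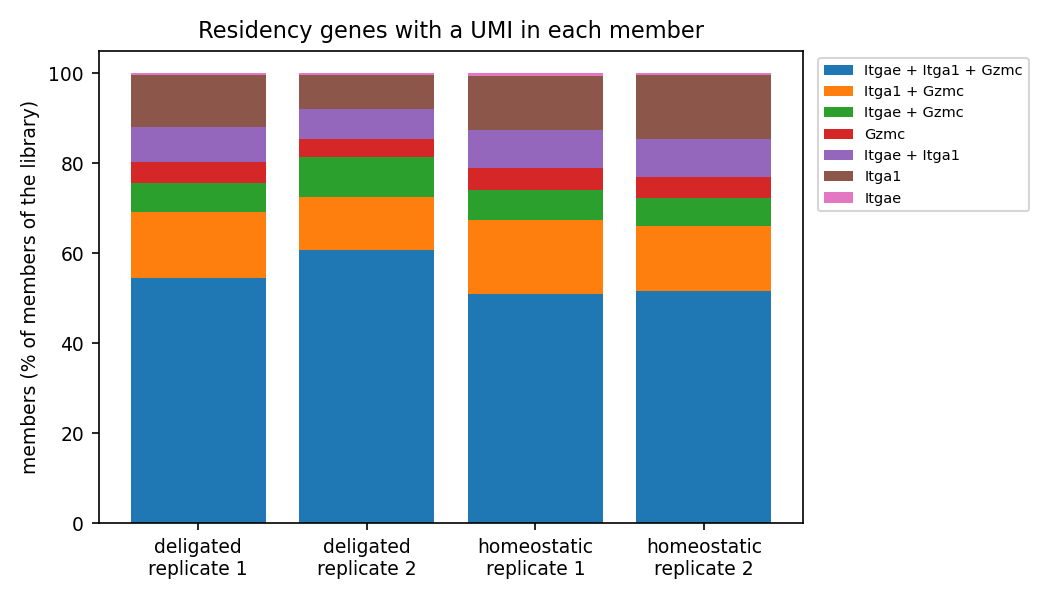
Stacked bars give the percent of members of each library by which of Itgae, Itga1 and Gzmc had a UMI. The combination of all 3 genes was the most frequent in each library, from 50.9% to 60.8%.

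Cells near the threshold of 2 residency UMIs were few beside the members. Exactly 2 such UMIs were held by 248 members and 1 UMI by 336 NK-type cells just outside, whereas 2815 members held at least 4. Just inside, Eomes was at 102, 153, 124 and 147 CPM, and just outside at 257, 181, 255 and 175. Cxcr6, a chemokine receptor of tissue lymphocytes, was at 69.6 to 143 CPM just inside and 68.2 to 108 just outside. Gzmb was at 479, 451, 242 and 136 CPM just inside and 385, 397, 171 and 199 just outside, higher inside in 3 of 4 libraries.

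Eomes and Tbx21 UMIs were found in part of the members. An Eomes UMI was found in 31.9%, 31.7%, 37.5% and 35.0% of members, and in at most 0.369% of endothelial cells. A Tbx21 UMI was found in 30.2%, 25.6%, 50.9% and 56.8%, and in at most 0.504% of endothelial cells. Both factors were detected in 9.34%, 8.51%, 20.6% and 21.4% of members and neither in 47.3%, 51.2%, 32.1% and 29.6%. Thinned to 1000 UMIs, Eomes was seen in 6.78%, 7.52%, 8.26% and 7.47% and Tbx21 in 5.86%, 5.53%, 11.8% and 13.3%. At this depth a cell without a UMI cannot be read as a cell without the factor, so members were not divided between the NK and ILC1 lineages.

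Il7r, the IL-7 receptor chain carried by many other innate lymphoid cells, had a UMI in 2.20% to 4.52% of members. The ILC2 markers (6 to 10 of 12 detected) summed to 77.3, 92.0, 82.9 and 85.2 CPM, with at least 2 UMIs in 11.1% to 14.1% of members. The ILC3 markers (7 or 8 of 12 detected) summed to 104, 150, 169 and 113 CPM, with at least 2 UMIs in 8.79% to 17.4%. Cd3g, a subunit of the T cell receptor complex that the rule did not use, had a UMI in 19.4%, 27.3%, 29.0% and 25.5% of members, against 95.7% to 98.0% of T cells and 0.269% to 2.92% of endothelial cells. At least 5 Cd3g UMIs were held by 10.6% to 14.1% of members. The T cell markers, some of which NK cells share, summed to 810, 866, 722 and 747 CPM (8 to 12 of 14 detected), with at least 2 UMIs in 81.0% to 85.0% of members, and Cd3e, Cd3d and Trac at 0 by the rule. The B and plasma cell markers (5 to 7 of 9 detected) summed to 296, 313, 199 and 186 CPM, with at least 2 UMIs in 34.1% to 51.5% of members. Only Ighm and Ighd of that list had enough UMIs to be tested between groups. The dendritic cell markers (5 to 10 of 10 detected) summed to 72.5, 164, 1550 and 743. Other lists were counted in members as well: the 9 fibroblast markers, all detected, summed to 733, 1244, 144 and 206 CPM, and macrophage markers (7, 9, 10 and 9 of 10 detected) to 10.5, 31.7, 651 and 269. Secretory epithelium markers (16 to 19 of 20 detected) summed to 103, 303, 12848 and 6459 CPM, and erythroid markers to 47.5, 1378, 5345 and 2023. The mast cell and neutrophil lists summed to at most 1.44 CPM. The T cell, B and plasma cell, dendritic, fibroblast, macrophage, secretory and erythroid sums did not overlap between groups, while the ILC2 and ILC3 sums did. Values without doublet-like cells, and without members holding at least 2 UMIs of the other classes counted above, are given with the group comparison. Neither setting counted secretory, dendritic, erythroid, T cell, ILC2 or ILC3 markers.

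The share of members was compared between groups to see whether these cells were more frequent after release of the ducts. Members made up 12.1% (95% exact Clopper-Pearson interval 11.1 to 13.1) and 16.8% (16.0 to 17.6) of retained cells in the deligated libraries, and 5.48% (5.08 to 5.91) and 5.66% (5.26 to 6.09) in the homeostatic ones. The groups did not overlap, and their means were 14.4% ± 3.35 (SD, n = 2) and 5.57% ± 0.127 (SD, n = 2), a difference of 8.87 percentage points (exact two-sided permutation p = 0.333, adjusted over the 2 shares p = 0.667). Libraries of 2 against 2 cannot give a p under 0.333. Thinned to 1000 UMIs the difference was 3.08 points, since fewer cells then met the rule. Intervals cover counting error only, and the bead depletion and the recovery of other cells also set this denominator.

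Within NK-type cells the shares overlapped at the rule's own thresholds. Members were 74.1% (70.8 to 77.2) and 82.8% (81.0 to 84.6) of NK-type cells in the deligated libraries and 70.4% (67.3 to 73.3) and 74.2% (71.2 to 77.0) in the homeostatic ones. Deligated replicate 1 lay just under homeostatic replicate 2. The means of 78.5% ± 6.19 (SD, n = 2) and 72.3% ± 2.66 (SD, n = 2) were closer than the deligated libraries were to each other (exact two-sided permutation p = 0.667, adjusted p = 0.667). The groups did not overlap, with p = 0.333 in the same exact test, when at least 1 or at least 3 residency UMIs were asked for or the condition on S1pr5 and Klrg1 was dropped, and the difference was then 5.97, 6.11 and 6.72 points, against 6.19.

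Members were next set against the 518 NK-type cells of the same libraries (89, 131, 159 and 139) with no UMI of the residency genes. Members carried far more RNA of granzyme B and of several genes not usually named with cytotoxic cells, and less RNA of the egress factor Klf2, of the stem-like factors Tcf7 and Lef1, and of the IL-18 receptor. Median depth was 5864, 5446, 6490.5 and 6403 UMIs in members and 5849, 5397, 5619 and 5355 in the others. It was thus alike in the deligated libraries and higher in members of the homeostatic ones. Among 9725 genes tested with edgeR's quasi-likelihood test and library as a block, 5.44% were higher and 6.56% lower in members (Benjamini-Hochberg adjusted p under 0.05). The 3 residency genes define this split, as do S1pr5 and Klrg1, which were at 0 in members by the rule and had a UMI in 38 of the 518 other cells. None of these was tested, and the split thus partly rests on markers of circulation.

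Gzmb, the granule protease that activates caspases in target cells, stood at 1939, 2601, 1947 and 1885 CPM in members and at 104, 347, 149 and 120 in the other NK-type cells. Every member value exceeded every other value, by 3.62 ± 0.17 on the log2 scale (adjusted p = 1.6e-07). Tnni1, the slow skeletal muscle form of troponin I, stood at 101, 124, 91.7 and 96.1 against 7.03, 9.24, 0 and 2.50 CPM. It had the widest log2 difference of the genes named here, 4.53 ± 0.29 (adjusted p = 1.5e-06). Matk, a kinase that restrains Src family kinases, was at 112, 124, 79.0 and 85.0 against 1.76, 23.8, 6.49 and 3.75 CPM, a log2 difference of 3.37 ± 0.28.

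Klk8, a kallikrein-related protease, was at 93.5, 105, 67.3 and 85.8 CPM in members and between 7.92 and 10.0 in the others, a log2 difference of 3.23 ± 0.16 (adjusted p = 1.8e-07). Cd3g was at 178, 221, 208 and 210 against 15.8, 15.8, 21.6 and 32.5 CPM, a log2 difference of 3.20 ± 0.14 (adjusted p = 1.5e-07). No member library overlapped the others in either gene. Vipr2, a receptor for vasoactive intestinal peptide, a parasympathetic transmitter of salivary glands, was at 48.3 to 58.0 against 3.51 to 13 CPM and differed by 2.59 ± 0.21. Lgals3, galectin-3, was at 351 to 390 against 22.8 to 95.2 CPM and differed by 2.38 ± 0.19.

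Lgals1, galectin-1, showed the opposite order to galectin-3, at 171, 153, 180 and 193 CPM in members and at 1040, 1076, 1021 and 1066 in the other NK-type cells. It was lower in all 4 libraries, with a log2 difference of -2.64 ± 0.08. Emb, a membrane protein of the basigin family, was at 15.0 to 20.2 against 94.1 to 202 CPM. The IL-18 receptor chains Il18r1 and Il18rap differed by -3.03 ± 0.20 and -2.83 ± 0.16.

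Of 23 tested transcription factors 10 were lower in members, 2 were higher and the rest did not pass (median log2 difference -0.39, against 0.04 over all genes tested), and 5 of 20 were lower after thinning to 1000 UMIs. Eomes was at 78.7, 85.6, 82.3 and 83.0 CPM in members and at 264, 244, 268 and 224 in the others, without overlap and within a narrow range in each kind of cell, a log2 difference of -1.64 ± 0.08 (adjusted p = 1.8e-07). Tcf7, encoding TCF-1, was at 9.46 to 14.5 against 63.8 to 94.9 CPM, a log2 difference of -2.67 ± 0.17, and its relative Lef1 differed by -2.64 ± 0.34. Id2, an inhibitor of E proteins needed by innate lymphoid cells, was higher by 0.34, a call that thinning or leaving out homeostatic replicate 2 ended. Tox and Runx3 did not pass (0.12 with adjusted p = 0.42, and 0.07 with adjusted p = 0.57).

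Of the list for egress and circulation, 8 of 14 tested genes were lower and 1, Itgam, was higher (median -1.01). Klf2, which drives S1pr1, was at 58.3, 52.5, 25.7 and 17.6 CPM in members and at 350, 335, 90.9 and 91.2 in the others, lower in each library by -2.48 ± 0.14 on the log2 scale (adjusted p = 4.2e-07). The members of the deligated libraries nonetheless stood above those of the homeostatic ones. Itga4 differed by -1.48 and Zeb2, a factor of mature circulating NK cells, by -0.61. Itga2 (CD49b), a classical marker of circulating NK cells named after its values were seen, was at 10.8 to 34.0 against 46.2 to 133 CPM, a log2 difference of -2.09 ± 0.12.

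The residency list, without the genes of the rule, was divided: 8 of 18 tested genes were higher and 4 lower (median 0.11). Rgs1, which dampens chemokine receptor signals, was at 2132, 1925, 511 and 592 CPM in members against 787, 631, 296 and 226, higher in every library by 1.26 ± 0.09 on the log2 scale (adjusted p = 4.0e-06). Cdh1, E-cadherin, the ligand of CD103, was itself higher in members, at 125 to 182 against 22.8 to 40.0 CPM, a log2 difference of 2.34 ± 0.11. A Cdh1 UMI was found in 51.1% to 64.6% of members and at most 1.07% of endothelial cells. Cxcr6, named after its values were seen, was at 201, 231, 137 and 160 against 36.9, 81.9, 29.2 and 26.2 CPM, a log2 difference of 2.04 ± 0.16. Itgb1, the partner of Itga1, was lower by -0.42, and Cd69, a retention molecule, did not pass (0.12, adjusted p = 0.47).

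Cytotoxic genes did not move as a block, with 3 of 16 tested higher (Gzmb, Tnfsf10 and Ctsw) and 6 lower (median 0.06). Gzma, the granule tryptase of NK cells, was at 637, 583, 497 and 393 CPM in members and at 1656, 1271, 1047 and 776 in the others, lower in each library by -1.19 ± 0.07 on the log2 scale (adjusted p = 1.2e-06). Gzma UMIs came from few members: 10.6%, 12.6%, 10.9% and 9.96% of them held one, against 50.6%, 38.2%, 43.4% and 42.4% of the other NK-type cells and 0.171% to 3.02% of endothelial cells. Gzmb was spread differently, with a UMI in 81.3%, 86.2%, 77.6% and 73.5% of members and 24.7%, 45.8%, 26.4% and 23% of the others. Endothelial cells showed 1.17%, 10.5%, 1.05% and 0.539%, highest in deligated replicate 2, where the share of the other NK-type cells was also highest. Perforin, Prf1, differed by -0.56 and Nkg7, a granule membrane protein, by -0.32.

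Among secreted factors 1 of 19 tested genes was higher and 8 were lower (median -0.49), and 1 of 11 higher and 3 lower after thinning. Ccl5, a T and NK cell attractant, was the higher one, at 6495, 7179, 3894 and 4457 CPM against 3425, 4097, 2822 and 2731, a log2 difference of 0.68 ± 0.05. Ccl3 and Ccl4 differed by -1.29 and -0.90, and Ifng and Tnf by -1.01 and -1.08. Xcl1, a dendritic cell attractant with a UMI in 96.7% to 97.9% of members, differed by -0.24, a call lost after thinning (-0.12, adjusted p = 0.27). The Ifng call was lost after thinning too (-0.87, adjusted p = 0.064). Receptors for cytokines gave 5 of 25 higher and 11 lower (0 and 5 of 19 after thinning), among them Ccr2 at 170 to 197 against 365 to 550 CPM, a log2 difference of -1.36 ± 0.10.

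NK receptors and adaptors divided almost evenly, with 10 of 31 tested higher and 8 lower (median 0.08). Cd7, an early lymphoid surface protein, was at 1602, 1817, 967 and 1164 against 439, 527, 265 and 367 CPM, a log2 difference of 1.75 ± 0.06. The Ly49 receptor genes Klra4 and Klra8, of a family of related genes whose shared sequence was not checked here, differed by -0.88 and -0.60. Of the TGF-beta list 5 of 17 tested genes were higher and 2 lower (median 0.21), but none of 13 tested passed in either direction after thinning. Its receptor Tgfbr2 was higher by 0.49, at 80.7 to 149 against 54.5 to 107 CPM, and Tgfbr1 by 0.58 (adjusted p = 0.045), a call lost without deligated replicate 1 or either homeostatic library.

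Of 16 MHC class I genes 8 were lower and none higher (median -0.26), and 5 were lower after thinning. Among interferon-stimulated genes 12 of 32 were lower and 1 higher (median -0.52), but 0 of 16 were lower and 1 higher after thinning. Early-response genes gave 10 of 33 lower and 1 higher (median -0.18), and 4 of 28 lower after thinning, and glycolysis genes 5 of 14 lower and 1 higher (median -0.25), with 0 of 12 lower after thinning. The 21 tested cell cycle genes gave no call in either direction. The plot of called list genes sets these shares beside those over all genes. Of 8 tested T cell markers, Cd3g was higher and 6 were lower, among them Trbc2 (-0.50) and Trbc1 (-0.42), whose call was lost after thinning. All of the 8 macrophage, 9 fibroblast and 8 endothelial markers tested failed to pass, while 5 of 6 mural markers were higher, among them Kcnj8, a potassium channel subunit, at 39.5, 52.5, 18.1 and 13.5 against 5.27, 3.96, 3.25 and 1.25 CPM.

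**Figure D2:**
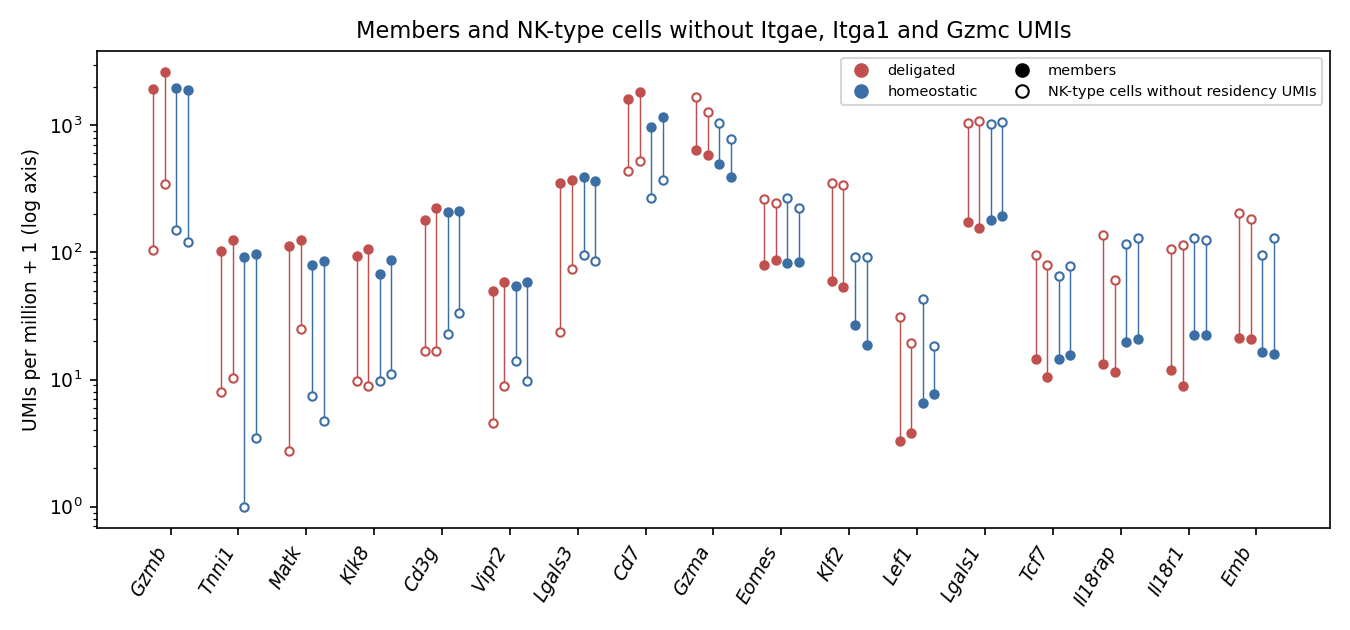
Points give CPM plus 1 on a log axis for each library, filled for members and open for NK-type cells without residency UMIs, red for deligated and blue for homeostatic libraries. Gzmb was at 1885 to 2601 in members and 104 to 347 in the others, and Lgals1 at 153 to 193 and 1021 to 1076.

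A narrower comparison took the 38 circulating-type NK cells (7, 13, 7 and 11), which had no residency UMI and at least 1 UMI of S1pr5 or Klrg1. They are part of the 518 cells above, so both comparisons share cells and members. Cxcr6 and Gzmb were again higher in members, and Gzma, Lgals1 and Eomes lower. Of 8797 genes tested, 1.52% were higher and 0.796% lower in members by edgeR's quasi-likelihood test. The median gene differed by 0.29 on the log2 scale, and 65.7% of called genes were higher. With DESeq2, which changes both the scaling and the test, the median was 0.18 and 33.3% of called genes were higher. After thinning to 1000 UMIs the share was 93.3% (83 higher and 6 lower). Directions of single genes below were the same with edgeR and DESeq2.

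Cxcr6 was at 201, 231, 137 and 160 CPM in members and had 0 UMIs in the circulating-type cells, so it was at least 14.8-fold higher in members (floor of 3 UMIs over the group). Gzma was at 637, 583, 497 and 393 CPM against 5614, 3300, 1389 and 3118, a log2 difference of -2.41 ± 0.16 (adjusted p = 1.1e-47). In this comparison edgeR pools its estimate of spread over genes, so neither this error nor such p-values measure how far a single gene varied between libraries. Eomes was at 78.7 to 85.6 against 226 to 379 CPM, a log2 difference of -1.75 ± 0.26 (adjusted p = 5.9e-09), and its call was lost after thinning (-1.45, adjusted p = 0.17). None of these overlapped between the kinds of cell. S100a4, a calcium-binding protein, was at 815 to 1146 against 105 to 228 CPM, a log2 difference of 2.81 ± 0.23. Lgals1 was at 153 to 193 against 1090 to 2219 CPM and differed by -2.87 ± 0.19.

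Cd226, the activating receptor DNAM-1, was at 255, 269, 447 and 472 against 0, 35.6, 0 and 50.3 CPM and differed by 3.94 ± 0.39. Residency genes gave 5 higher and 1 lower of 18 tested, egress genes 5 lower of 12 (0 of 4 after thinning), transcription factors 1 higher (Id2) and 3 lower of 22 (1 and 0 of 11 after thinning), and cytotoxic genes 2 higher and 4 lower of 16 (2 and 1 of 11 after thinning). Calls rested partly on library choice here: without deligated replicate 1 the number of called genes was 116 and without deligated replicate 2 it was 135, while leaving out any 1 library gave 116 to 166. Only 6 of the 38 cells held at least 2 UMIs of S1pr5 and Klrg1, and against those 6 only 10 genes were called. Markers of other cells also differed, with 5 of 7 fibroblast and 6 of 9 secretory markers higher in members. Gsn, a gene also abundant in fibroblasts, moved from 3.64 to 0.54 (adjusted p = 0.838) once doublet-like cells were left out.

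Among the members themselves, Gzmc divided 2400 cells with at least 2 UMIs (388, 1096, 449 and 467) from 605 with none (108, 205, 135 and 157), and 276 held 1. Members with Gzmc carried more Gzmb, Tnni1, Cd3g and Lgals3, and less Eomes, Ccr2, Lgals1 and IL-18 receptor. This split and the comparison with NK-type cells share cells and the use of Gzmc, so their lists of genes are not independent. Median UMIs were 5614 to 6711 with Gzmc and 4968 to 5885 without. Of 9372 genes tested with library as a block, 1.55% were higher and 2.52% lower with Gzmc by edgeR's quasi-likelihood test.

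Gzmb was at 2365, 3018, 2576 and 2420 CPM in members with Gzmc and at 605, 649, 453 and 404 in those without, higher in every library by 2.31 ± 0.09 on the log2 scale (adjusted p = 5.1e-08). At least 2 Gzmb UMIs were held by 83.5%, 88.8%, 85.5% and 85.9% of the former, by 70.0%, 64.2%, 63.8% and 44.1% of members with 1 Gzmc UMI, and by 38.9%, 39.5%, 29.6% and 24.2% of those with none. The share went down in that order in each library. Tnni1 was at 123, 143, 118 and 120 against 27.8, 43.4, 35.4 and 35.3 CPM, a log2 difference of 1.79 ± 0.10 (adjusted p = 2.2e-06). Cd3g was at 202 to 261 against 80.7 to 117 CPM and differed by 1.27 ± 0.12 (adjusted p = 0.00012).

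Klk8, Lgals3 and Matk were higher by 1.19, 0.98 and 0.97, and Klra5, a Ly49 receptor gene with close paralogs, by 1.59 ± 0.27. Chemokines gave 4 higher of 15 secreted factors tested (Xcl1, Ccl1, Ccl5 and Mif) and 1 lower, Ifng, while after thinning Xcl1 and Ccl5 were higher and none lower of 11. Ccl5 was at 6983, 7575, 4304 and 4932 against 4786, 5417, 3176 and 3026 CPM, a log2 difference of 0.53. Xcl1 differed by 0.43, at 1676 to 2539 against 1309 to 1984 CPM. Ccl1, a ligand of CCR8, was at 45.8, 80.9, 281 and 11.9 CPM with Gzmc and at 0, 0, 1.14 and 0 without, and its UMIs came from 2, 31, 21 and 10 members, with 99.1%, 24.6%, 39.1% and 42.9% of them from a single cell.

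Eomes was at 60.9, 74.7, 63.5 and 63.6 CPM in members with Gzmc and at 134, 141, 159 and 145 in those without, lower in each library by -1.14 ± 0.08 on the log2 scale (adjusted p = 1.5e-05). Ccr2 was at 127 to 155 against 298 to 342 CPM, a log2 difference of -1.11 ± 0.07. Lgals1 was at 105, 116, 150 and 101 against 386, 342, 310 and 497 CPM, a log2 difference of -1.71 ± 0.15. The groups of cells did not overlap in any of these. Il18rap differed by -2.15 ± 0.19, Thy1 by -1.54, Itga2 by -1.37, and Cd160, an NK receptor, by -1.33.

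By list, 8 of 22 transcription factors were lower with Gzmc and none higher (median -0.41, against -0.01 over all genes), as were 5 of 12 egress genes (median -0.58) and 6 of 32 early-response genes. After thinning these counts were 4 of 14, 2 of 5 and 1 of 26. Heat shock genes gave 3 higher of 14, among them Hspa5, an endoplasmic reticulum chaperone, by 0.56. Gzma was higher by 0.72 ± 0.17 (adjusted p = 0.042), at 747, 664, 598 and 402 against 471, 219, 377 and 400 CPM, and the call was lost without either deligated library or homeostatic replicate 1. Leaving out homeostatic replicate 1 or 2 lowered the number of called genes from 381 to 177 or 153, and leaving out doublet-like cells raised it to 571. Rgs1 did not pass in this comparison (0.13, adjusted p = 0.26).

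**Figure D3:**
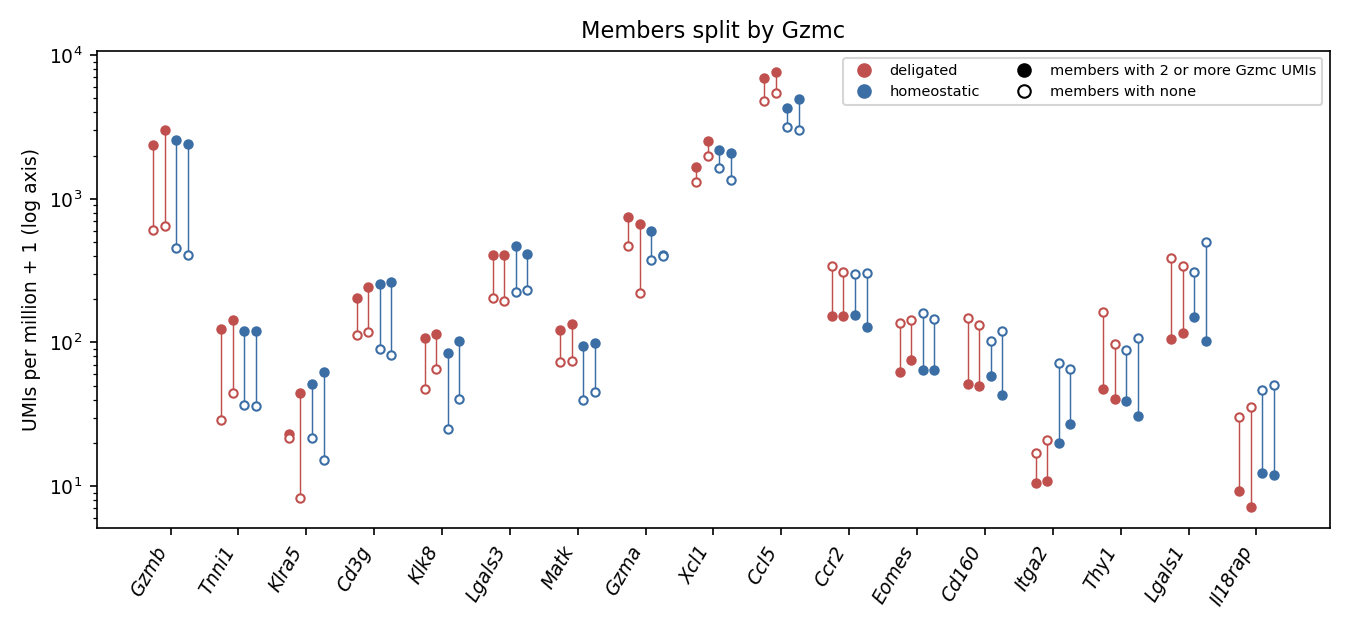
Points give CPM plus 1 on a log axis for each library, filled for members with 2 or more Gzmc UMIs and open for members with none. Gzmb was at 2365 to 3018 and 404 to 649, and Eomes at 60.9 to 74.7 and 134 to 159.

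**Figure D4:**
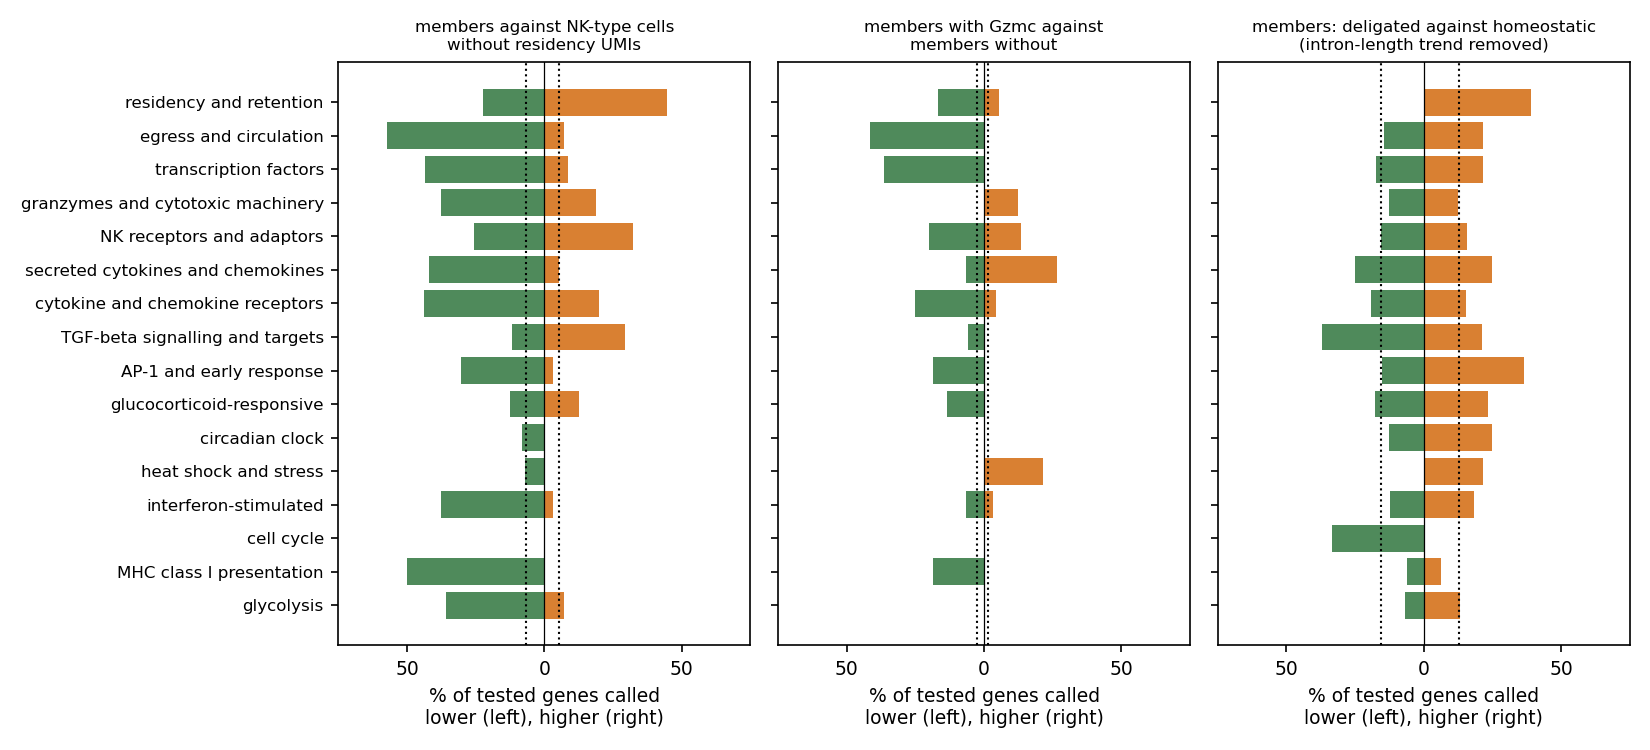
Bars give the percent of tested genes of each list that were called higher (right) or lower (left) in 3 comparisons, and dotted lines give the percent over all genes tested. Against NK-type cells without residency UMIs, 8 of 14 egress genes were lower, and in the group comparison, drawn with the intron-length trend removed, 12 of 33 early-response genes were higher.

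Deligated and homeostatic members were compared to see which genes differed 5 days after the ducts were opened. Early-response and retention genes such as Rgs1, Junb, Dusp1 and Btg1 were higher in deligated members, and Tbx21, Tnf and Tgfbr1 were lower. Gzmb, Xcl1, Eomes and the Ly49 genes Klra4 and Klra8 did not pass. Of 11571 genes tested by edgeR's quasi-likelihood test, 14.6% were higher and 23.5% lower in deligated members. Part of this moved with intron length: member UMIs of genes whose introns span more than 100 kb were 4.45% and 4.43% of the total in the deligated libraries and 9.60% and 9.97% in the homeostatic ones, and the log2 difference correlated with intron length across genes (Spearman rho -0.48, genes not being independent replicates). T cells of the same libraries showed 4.34% and 4.37% against 9.51% and 9.23%. With that trend removed, 12.9% were higher and 15.6% lower, and values from that setting are given as "trend removed".

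Rgs1 was at 2132 and 1925 CPM in deligated members and 511 and 592 in homeostatic ones, higher by 1.92 ± 0.11 on the log2 scale (adjusted p = 1.5e-05; trend removed 1.48). Junb, an AP-1 subunit, was at 1033 and 1434 against 489 and 482, higher by 1.38 ± 0.14 (adjusted p = 0.0002; trend removed 1.09). Dusp1, a phosphatase of MAP kinases, was at 119 and 141 against 33.3 and 33.0, higher by 2.01 ± 0.11 (adjusted p = 1.2e-05; trend removed 2.34). The groups did not overlap in these genes. Btg1, which restrains proliferation, was at 3097 and 2427 against 848 and 1017, higher by 1.61 ± 0.15 (trend removed 1.30). Zfp36l2, an RNA-binding protein that promotes mRNA decay, was at 646 and 840 against 275 in both homeostatic libraries, and Dusp5 differed by 1.52.

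Of the early-response list 19 of 33 tested genes were higher and 4 lower (median 0.62, against 0.02 over all genes), and 12 were higher and 5 lower with the trend removed (median 0.21). The lower ones were Nr4a2, Atf3, Nfkbiz and Tnfaip3, joined by Fosb when the trend was removed. Fos and Dusp2, named after their values were seen, were at 415 and 490 against 208 and 222, and at 538 and 711 against 292 and 307. Of the residency list 8 of 18 were higher and none lower, and 7 with the trend removed. Cd69 was at 458 and 455 against 244 and 246, higher by 0.93 (trend removed 0.65), and Rgs2 was at 381 and 435 against 156 and 169, higher by 1.36. Cxcr6 was higher by 0.57 (adjusted p = 0.005), and by 0.30 with the trend removed, where its call was lost (adjusted p = 0.071).

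Heat shock genes gave 6 higher of 14 and none lower, and 3 with the trend removed, among them Hspa1b by 1.31. MHC class I genes gave 8 higher and 2 lower of 16, and only 1 each way with the trend removed. H2-K1 was then higher by 0.26 (adjusted p = 0.068) in place of 0.54, so its call was lost. Klf2, low in members of all libraries, was at 58.3 and 52.5 against 25.7 and 17.6, higher by 1.38. Of the glucocorticoid-responsive list 6 genes were higher and 6 lower of 17, and 4 and 3 with the trend removed. Tsc22d3, a glucocorticoid-induced gene named after its values were seen, was at 88.1 and 98.2 against 20.8 and 23.6, higher by 2.11. Lower in the same list were Fkbp5, Per1, Zbtb16, Sesn1, Mt1 and Nr3c1, of which Per1, Sesn1 and Mt1 stayed called with the trend removed.

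Tbx21 was at 56.0 and 50.9 CPM in deligated members and 129 and 149 in homeostatic ones, lower by -1.35 ± 0.11 on the log2 scale (adjusted p = 8.9e-05; trend removed -1.50). Eomes showed no such shift, at 78.7 and 85.6 against 82.3 and 83.0 (0.03, adjusted p = 0.84; trend removed -0.24, also not called). Tnf was at 15.6 and 24.1 against 67.3 and 80.9, lower by -1.81 ± 0.18 (trend removed -2.10). Il12rb2, an IL-12 receptor chain, and Il18r1, both named after their values were seen, differed by -1.45 and -1.22. Ccl5 went the other way, at 6495 and 7179 against 3894 and 4457, higher by 0.75 ± 0.08 (trend removed 0.48).

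Tgfbr1, a TGF-beta receptor chain, was at 51.7 and 53.0 against 197 and 169, lower by -1.77 ± 0.11 (adjusted p = 2.5e-05; trend removed -1.42). The other retained cells of the same libraries showed it at 44.2 and 48.2 against 231 and 221, so the shift was not confined to members. Of the TGF-beta list 4 genes were higher and 9 lower of 19, and 4 and 7 with the trend removed. Smad7, a feedback inhibitor of the pathway, was higher by 0.56 and Tgfb1, a ligand, by 0.52, while Smad3, a signal transducer named after its values were seen, differed by -1.55.

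Tox, a factor of innate lymphoid development, was at 89.5 and 124 against 625 and 624, lower by -2.51 ± 0.14, and by -0.91 with the trend removed. Ikzf3 was at 155 and 151 against 428 and 444, lower by -1.48 (trend removed -0.99). Transcription factors gave 3 higher and 10 lower of 23 (median -0.52), but 5 and 4 with the trend removed, so the excess of lower calls was not kept. Genes with long introns were among those with wide differences. Oprm1, the mu opioid receptor gene, was at 1.71 and 1.73 against 111 and 98.3, lower by -5.88 and by -4.36 with the trend removed. Dscam was lower by -3.83 and Fhit by -4.00, and by -1.67 and -0.96 with the trend removed. Slc2a1, the glucose transporter GLUT1, was at 9.66 and 11.4 against 63.8 and 66.2, lower by -2.56 ± 0.13 (trend removed -2.54).

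Cell cycle genes gave 6 lower and none higher of 24 tested (median -1.06), a share close to the 23.5% of all genes called lower, and 8 lower with the trend removed, where 15.6% of all genes were lower. Mki67, a proliferation marker, was at 11.7 and 9.92 against 21 and 41, lower by -1.52 ± 0.31 (adjusted p = 0.0068). Top2a, a topoisomerase of dividing cells, was at 28.1 and 11.9 against 39.1 and 75, lower by -1.61. The groups did not overlap in either gene, although homeostatic replicate 2 was well above homeostatic replicate 1. Mki67 UMIs came from only 9, 14, 24 and 30 members, and a single cell held 36.6% and 57.0% of them in deligated replicates 1 and 2.

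Gzmb and Xcl1 did not pass, unlike Ccl5. Gzmb was at 1939 and 2601 against 1947 and 1885 (0.27, adjusted p = 0.11; trend removed -0.01), and Xcl1 at 1571 and 2460 against 2017 and 1909 (0.07, adjusted p = 0.79; trend removed -0.21). Groups overlapped in both genes. Klra4 and Klra8 differed by -0.17 and 0.08 (Klra8 by -0.09 with the trend removed), Il2rb, the shared chain of the IL-2 and IL-15 receptors, by 0.20 (adjusted p = 0.30), and Runx3 by 0.28 (adjusted p = 0.11), which was called at 0.60 with the trend removed. Of 16 cytotoxic genes 6 were higher and 1 lower, and 2 each way with the trend removed. NK receptors gave 12 higher and 5 lower of 32, and 5 each way with the trend removed. Over all genes 14.6% were higher and 23.5% lower, and 12.9% and 15.6% with the trend removed. The trend-removed counts of both lists were near those shares, which apply to the other lists of this comparison as well.

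**Figure D5:**
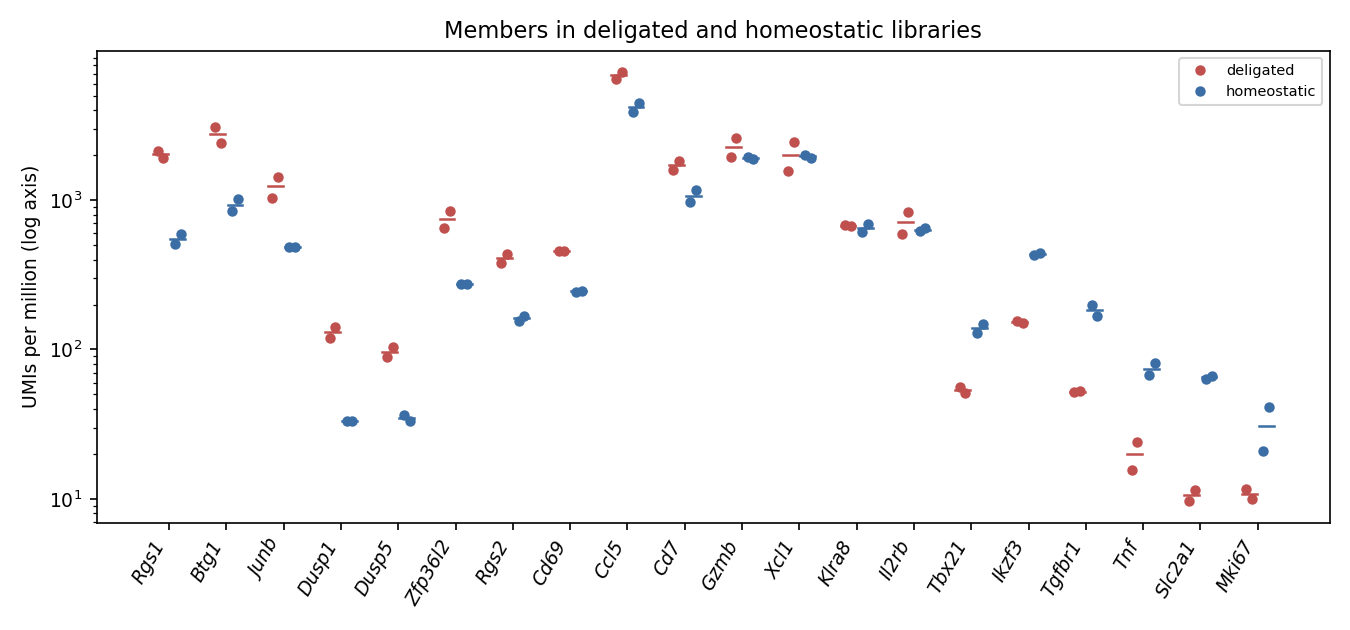
Points give CPM on a log axis in members of each library, red for deligated and blue for homeostatic, with a line at the mean of 2 libraries. Rgs1 was at 1925 and 2132 in deligated and 511 and 592 in homeostatic members, and Tbx21 at 50.9 and 56.0 and at 129 and 149.

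Secretory genes were among the widest differences in members, with a median log2 difference of -7.12 over that list, and marker lists of several other cells differed too. All 9 fibroblast, 7 of 8 mural and 7 of 9 endothelial markers tested were higher in deligated members, and all 9 macrophage, 4 of 5 dendritic, 4 of 6 epithelial and 16 of 17 secretory markers were lower. Col1a1, a fibrillar collagen gene, was at 90.4 and 133 against 10.3 and 13.7 in members, and at 853 and 649 against 80.7 and 83.4 in the other retained cells. Mucl2, a secretory gene, was at 111 and 115 against 38409 and 7832 in members, and at 433 and 1825 against 73006 and 73160 in the other cells. Il31ra, a cytokine receptor chain, was at 0 and 0 against 46.1 and 56.3 CPM in members, and at 0.032 and 0.0226 against 63.2 and 73.9 in the other cells. With doublet-like cells left out, C1qa, a complement gene of macrophages, moved from -4.68 to -1.15 (adjusted p = 0.151) and Cd74 from -3.29 to -1.06 (adjusted p = 0.087), and 4195 genes were called in all, against 4409 with them. Another setting left out members with at least 2 UMIs of macrophage, B and plasma cell, fibroblast, mural, epithelial, Schwann and endothelial markers. It counted Cdh1, kept 312 members and left secretory, dendritic, erythroid and T cell markers uncounted. In it 925 genes were called, and Rgs1, Junb, Dusp1, Tbx21, Tnf and Tgfbr1 were among them, each in the direction given above.

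To see whether the group difference was particular to members, it was tested against that in other cells of the same libraries by an interaction term. Against the 38 circulating-type cells, 0.12% of 10020 genes were called in either direction, and against the 1020 T cells (450, 375, 97 and 98), 0.211% of 11832. The genes with the clearest group differences above were not among them. Rgs1 in T cells was at 772 and 741 against 241 and 224, with a difference between the contrasts of 0.12 ± 0.14 (adjusted p = 0.91). Junb was at 1023 and 1397 against 344 and 477 (-0.28, adjusted p = 0.76) and Btg1 at 2638 and 2061 against 875 and 787 (0.02, adjusted p = 1). Dusp1 was at 288 and 368 against 48.1 and 86.3 (-0.38, adjusted p = 0.82), and Tbx21 at 17.1 and 33.9 against 75 and 84.2 (0.24, adjusted p = 0.92). T cells and members thus each showed these genes on the same side, and a p that misses the threshold does not show that the contrasts were alike.

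Among genes called against circulating-type cells, Gzmb had a more negative group difference in members than in those cells, by -2.31 (adjusted p = 0.00012), where the circulating-type values of 284, 760, 26.2 and 151 CPM rested on 15, 64, 1 and 9 UMIs. The call was lost without doublet-like cells (-2.03, adjusted p = 0.066), with DESeq2, with thinning and when deligated replicate 2 or either homeostatic library was left out, and Gzmb reversed to 1.53 without cells holding other-class UMIs. Against T cells, Zeb2 (-1.47) and Ifi27l2a (-1.63) were called, but Zeb2 lost its call with the trend removed (-1.43, adjusted p = 0.059). Ifi27l2a, an interferon-induced gene, was at 18.8 and 31.5 against 112 and 69.4 in members and at 534 and 703 against 695 and 770 in T cells, so its group difference was wider in members. It was still called, at -2.28, without doublet-like cells. These counts moved with single libraries: the 12 calls against circulating-type cells became 1 without deligated replicate 2 and 6 without homeostatic replicate 2, and the 25 against T cells became 81, 138 and 10 without deligated replicate 1, deligated replicate 2 and homeostatic replicate 1. With at least 2 UMIs of S1pr5 and Klrg1 required, edgeR called 0 genes against circulating-type cells, with 24 at an unadjusted p under 0.05, and DESeq2 called 2 with the full set of those cells.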

How the data were processed

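The deposited matrices hold raw UMI counts per gene and barcode. Per the file headers they were made with Cell Ranger 6.0.1 (deligated) and 7.0.0 (homeostatic), while the submitters' processing notes name Cell Ranger 6.0.1, Seurat and mm10. Whether intron reads were counted is not given in the sources used here. Gene identifiers (31011 of 31053) matched GENCODE M21 on GRCm38, which gave intron lengths.

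UMIs were summed over the cells of a kind in each library, since cells are not replicates. Sums were tested with edgeR 4.0.16 in R 4.3.3 (TMM, filterByExpr, quasi-likelihood test, Benjamini-Hochberg adjustment, threshold 0.05), with library as a block for contrasts within libraries. The script was tested on simulated counts. DESeq2 1.42.0 was the alternative, and limma 3.58.1, Python 3.11.15, pandas 2.3.3 and SciPy 1.17.1 were used. The 13 genes of the rule and mitochondrial genes stayed in library sizes and were not tested. CPM are UMIs scaled to 1000000 per sum.

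The trend-removed setting subtracts, as an offset, the trend of the log2 difference with intron length. Other settings were no low-count filter, thinning to 1000 UMIs, a stricter cell filter (1000 UMIs, 5% mitochondrial), cells with at least 2 UMIs of other classes left out, each library left out, and blocks. The comparison with NK-type cells without residency UMIs, the T cell interaction, the doublet-like setting, which sets 6 markers aside, and the crossed block were added after the data were seen.

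Members and the 16 functional and 15 marker lists were chosen with earlier results of these data known. Named genes were the 8 widest differences per direction (4 for interactions) at 20 CPM or more that passed under the trend-removed or thinned setting in every library, plus up to 4 called and 2 uncalled (50 CPM or more) genes per list. Some genes that met this rule are not reported here. Replicate numbers did not pair the libraries.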

Additional observations from a re-analysis of the deposited data

Results flagged for a closer look

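The results here are genes whose deligated-homeostatic difference was unlike in members and in another kind of cell of the same libraries, by the interaction term of edgeR's quasi-likelihood test. Values are the log2 difference in members minus that in the other cells. Several rest on genes at or near 0 in 1 kind of cell, where the fitted value depends on the prior count and is no bound.

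Against the 38 circulating-type NK cells, positive values were found for Klk1 (10.48), Cd74 (11.30), Lgals3 (2.92) and Inpp4b (2.60). Cd74 in circulating-type cells was at 0, 0, 0 and 3302 CPM. Negative values were found for the erythroid genes Hbb-bt (-7.26), Hba-a2 (-6.52), Hba-a1 (-5.87) and Hbb-bs (-5.72), where Hba-a1 with Hba-a2, and Hbb-bs with Hbb-bt, are similar copies between which counting could split reads, for Stmn1 (-13.00), for Gzmb (-2.31) and for the chemokines Ccl4 (-2.80) and Ccl3 (-2.48). Ccl4 in circulating-type cells was at 721, 7158, 498 and 419 CPM from 38, 603, 19 and 25 UMIs, with deligated replicate 2 the highest. With doublet-like cells left out, Stmn1, Ccl4 and Ccl3 were still called.

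Against T cells, Adam12 had a positive value (6.08). Negative values were found for the smooth muscle genes Myh11 (-11.54), Tpm2 (-10.26), Acta2 (-5.99) and Tagln (-5.36), for the erythroid genes Hbb-bt (-6.10), Hbb-bs (-4.92), Hba-a1 (-2.99) and Hba-a2 (-2.81), for Zeb2 (-1.47) and for Ifi27l2a (-1.63). Zeb2 was no longer called with the intron-length trend removed (-1.43, adjusted p = 0.059). Myh11 in T cells was at 361, 258, 0 and 0 CPM.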

How the results depend on the processing

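The 4409 genes called between deligated and homeostatic members became 2814 with DESeq2, 1763 with thinning and 925 with cells holding at least 2 UMIs of other classes left out, a setting that keeps few cells. The counts were 3298 with the intron-length trend removed, 3850 with a replicate block and 5178 with a crossed replicate block, where same-numbered libraries deviated oppositely (r = -0.193 over 11591 genes), and 3013 to 5357 with a library left out. Against NK-type cells without residency UMIs, 1167 calls became 313 with thinning, 334 without cells of other-class UMIs and 189 without the library block. Leaving out a library gave 839 to 1014. Against circulating-type cells, 204 calls became 99 with DESeq2, 89 with thinning, 24 without cells of other-class UMIs, 33 without the library block, 10 against cells with at least 2 S1pr5 and Klrg1 UMIs, and 116 to 166 with a library left out. Between members with and without Gzmc, 381 calls became 209 with DESeq2, 709 without a low-count filter, 97 with thinning, 103 without cells of other-class UMIs, 14 without the library block, 571 without doublet-like cells and 153 to 294 with a library left out. The 12 interaction calls against circulating-type cells became 2 with DESeq2, 1 with thinning, 1 without cells of other-class UMIs, 3 without doublet-like cells, 0 with the stricter definition and 1 to 15 with a library left out. The 25 against T cells became 15 with DESeq2, 214 without a filter, 5 with thinning, 12 with the stricter cell filter, 3 without cells of other-class UMIs, 7 without doublet-like cells and 10 to 138 with a library left out. The difference in the member share of retained cells was 3.08 points with thinning and 6.51 to 11.2 with a library left out, and that of NK-type cells 1.81 to 10.6. Fewer UMIs or cells entered the thinned and stricter settings; the cause of the other moves was not tested.

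Over the named genes and settings, 2255 values kept direction and side of the threshold, 249 no longer passed, 16 newly passed and 12 reversed. Reversed were Anxa1 (0.26), Ifng (1.53) and Cd160 (0.34) against the 6 cells with at least 2 S1pr5 and Klrg1 UMIs, and Xcl1 (0.013) against NK-type cells without residency UMIs when cells of other-class UMIs were left out. Interaction values reversed for Hbb-bt (0.91), Hba-a2 (1.70) and Hba-a1 (2.59) without deligated replicate 2 (with -14.00, -13.21 and -6.31 the lowest when another library was left out), for Gzmb (1.53) and Hbb-bs (1.16) without cells of other-class UMIs, for Cd74 (-3.58) without homeostatic replicate 2, against up to 13.24 without another library, and (-3.18) under the stricter definition, and for Hba-a2 against T cells (0.39) without doublet-like cells. The cause was not tested.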
